A study of Mus musculus with 6 samples.

Results

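Glutathione S-transferases (GST), their membrane-bound counterparts (MGST), UDP-glucuronosyltransferases (UGT) and sulfotransferases (SULT) were examined in mouse muscle that expressed a constitutively active aryl hydrocarbon receptor (AHR). The genes were chosen by name alone, as every row whose symbol began with Gst plus a class letter and number, Mgst, Ugt or Sult plus a number. This gave 68 of the 49315 rows of the count table, after 7 pseudogenes with a -ps name were set aside. The set held 22 GST, 3 MGST, 22 UGT and 21 SULT genes.

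These enzymes carry out phase II metabolism, in which a foreign or endogenous compound is joined to a water-soluble group so that it can be exported. GST and MGST enzymes attach glutathione to reactive electrophiles, UGT enzymes attach glucuronate from UDP-glucuronate, and SULT enzymes attach sulfate from the donor PAPS. AHR is a ligand-activated transcription factor that pairs with ARNT on DNA, and in liver its textbook gene battery holds Gsta1 and Ugt1a6 beside Cyp1a1 and Nqo1.

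The study injected the gastrocnemius, a calf muscle, of male C57BL6J mice at 5 months of age and collected it 5 months later. One group received AAV9-HSA-CAAHR (libraries CAAHR 31, 34 and 36), an adeno-associated virus that carries mouse AHR without its ligand binding domain. The control group received AAV9-HSA-GFP (libraries GFP 42, 43 and 46), in which the same virus type carries the fluorescent protein ZsGreen1. The human skeletal actin (HSA) promoter drove both inserts, so the transgene was aimed at muscle fibres, whereas RNA was taken from whole muscle. All 6 libraries had therefore received a virus, and uninjected muscle was not analysed here. By qPCR of selected immune genes, the paper found levels with CAAHR that were not below those of naive mice. It reads this as a local immune response to AAV-GFP. A gene that rose or fell is thus one that differed from GFP-injected muscle, and which group had moved was not tested. The labels number the libraries but do not state that each was a separate animal, so p-values measure the spread between these libraries.

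Library totals ran from 43432994 to 58825752 counts. Ahr was at 9.97, 22.8 and 17.3 CPM (counts divided by the scaled library size) in CAAHR 31, 34 and 36 and at 2.47, 2.55 and 1.87 CPM in GFP 42, 43 and 46, and delivered and endogenous Ahr reads were not distinguished. The summed level of 9 slow fibre markers was 2820, 661 and 2550 CPM in CAAHR 31, 34 and 36, against 235, 343 and 474 CPM in the GFP libraries, with 0 of the 9 called by edgeR, 8 at an unadjusted p under 0.05, 8 called by DESeq2 and 2 by limma-voom. CAAHR 34 was the lowest of the 3 CAAHR libraries by a wide margin. The 10 general muscle fibre markers summed to between 144000 and 180000 CPM in the CAAHR group and to 213000 CPM in each GFP library, with 3 of 10 lower (Acta1, Ckm and Tnnt3). Of the uncalled ones, Myh1, Myh2 and Mb had log2 fold changes of 1, 1.38 and 1.03. Those of Ttn, Myh4, Des and Actn3 were 0.03, -0.31, -0.48 and -0.25. Macrophage markers summed to between 27 and 46.2 CPM against between 54.3 and 119 CPM (0 of 9 tested called by edgeR, 7 at an unadjusted p under 0.05, 6 called by DESeq2 and 1 by limma-voom), and B and plasma cell markers to between 9.61 and 19.3 CPM against between 127 and 432 CPM (4 of 7 lower). Adipocyte markers summed to between 299 and 466 CPM against between 379 and 469 CPM (3 of 9 lower, median log2 fold change -2), fibroblast markers to between 658 and 1140 CPM against between 1000 and 1340 CPM, and endothelial markers to between 199 and 272 CPM against between 209 and 258 CPM. The ranges of the summed level overlapped for each of these lists. The adipocyte sum was mostly Plin4 (264 against 240 CPM on average) and Fabp4 (104 against 106 CPM), while Cfd was 8.25-fold, Plin1 6.83-fold and Retn 5.4-fold lower, and Adipoq was at 2.65 against 11.3 CPM without passing the test. The 8 hepatocyte markers summed to between 0.945 and 3.07 CPM against between 6.1 and 8.54 CPM, most of it Cyp2e1, with the defining marker Alb at 0.529 CPM or less. The part of these differences in the results that follow was not tested.

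GST and MGST genes made up nearly all of the summed level of these enzymes in muscle, 714 of 730 CPM on average in the CAAHR group and 627 of 645 CPM in the GFP group. Of the 68 genes, 24 had 0 counts in every library (12 UGT and 12 SULT), 20 had counts too low to pass the filter, and 24 were tested. The tested genes were 19 of 25 GST and MGST genes, 4 of 21 SULT genes and 1 of 22 UGT genes. In AAV9-HSA-CAAHR muscle 4 tested genes rose, the pi class genes Gstp1 and Gstp2, the mu class gene Gstm2 and the microsomal gene Mgst1, and 2 fell, the alpha class gene Gsta3 and the sulfotransferase gene Sult5a1. A gene counted as changed when its p from edgeR (quasi-likelihood), adjusted by Benjamini-Hochberg over all 15847 tested genes, was below 0.05.

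These 6 of 24 stood against 7.60% of all tested genes called in either direction, 3.04% called higher and 4.57% called lower. With a change of more than 2-fold as a second condition, 3 of 24 were called (Mgst1, Gsta3 and Sult5a1), against 3.48% of all tested genes. Every CAAHR library lay above every GFP library for 4 tested members, which were the 4 that rose, where 15.0% of all tested genes showed this. Every CAAHR library lay below every GFP library for 5, where the background was 14.9%. The median log2 fold change of the tested members was -0.03 (range -1.79 to 1.20) and that of all tested genes was 0.01. In whole-muscle RNA, fewer cells of a type and less RNA per cell cannot be told apart.

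**Figure D1:**
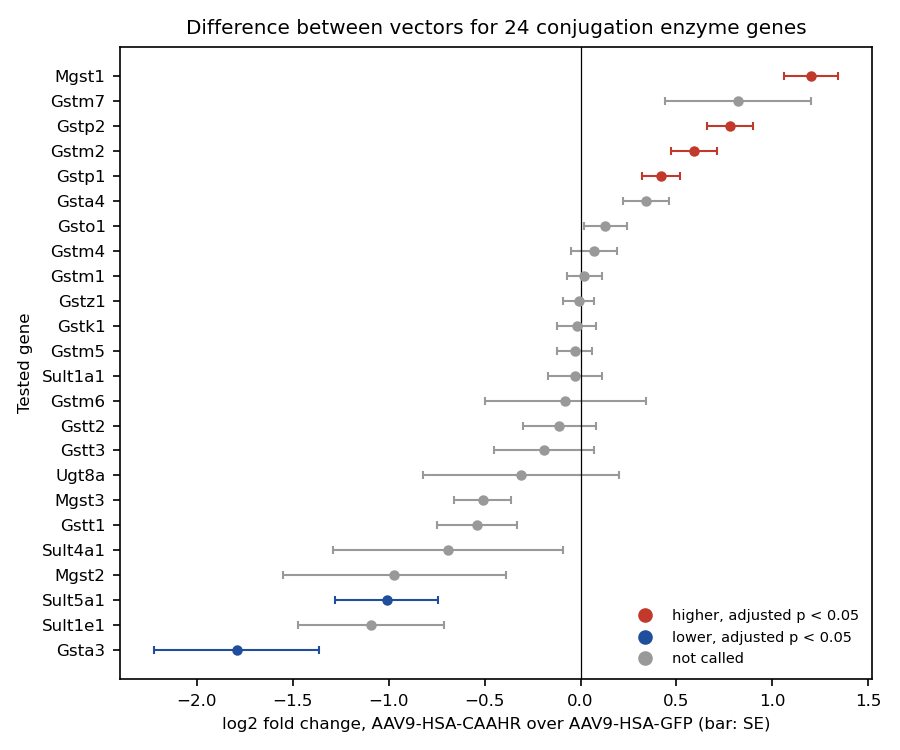
Log2 fold change of the 24 tested genes, AAV9-HSA-CAAHR over AAV9-HSA-GFP, with bars for the standard error (3 libraries per group). The 4 genes in red rose, the 2 in blue fell, and the remaining 18 in grey did not pass the adjusted threshold.

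Gstp1 and Gstp2 encode pi class GSTs, cytosolic enzymes that conjugate electrophiles and also modify signalling kinases. The genes are neighbours on the minus strand of chromosome 19 in GRCm38, Gstp1 at chr19:4035407-4037985 and Gstp2 at chr19:4040285-4046023. Their coding sequences, each of 630 bases, differed at 12 positions (98.1% identical). Of these, 6 fell within the first 90 coding bases, printed here with the differing bases in capitals because the split of reads between both genes rests on such bases:
Gstp1, coding bases 1 to 90: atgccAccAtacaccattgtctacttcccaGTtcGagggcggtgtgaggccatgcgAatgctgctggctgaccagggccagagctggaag
Gstp2, coding bases 1 to 90: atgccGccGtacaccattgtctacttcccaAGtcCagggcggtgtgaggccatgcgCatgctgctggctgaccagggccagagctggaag
The longest run without a difference was 300 bases. A window of 150 bases, the length of 1 read, matched another gene exactly in 44.1% of the windows of Gstp1 and 52.2% of those of Gstp2. Only uniquely assigned reads were counted, so reads that matched both genes were left out. The level of each gene, and their sum, may therefore be too low.

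Gstp2 was at 62.9, 79.8 and 71.5 CPM in CAAHR 31, 34 and 36 and at 38.6, 46.4 and 39.8 CPM in GFP 42, 43 and 46. The groups did not overlap, and CAAHR 34 was the highest library. Its log2 fold change was 0.78 ± 0.12 (SE), a 1.72-fold higher level, and the adjusted p was 0.00436 in the edgeR quasi-likelihood test. Gstp2 was called in all 15 alternative analyses that tested it as a single gene, leaving out each library in turn included.

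Gstp1 was at 130, 149 and 143 CPM in the CAAHR libraries and at 102, 103 and 110 CPM in the GFP libraries. The groups did not overlap, again with CAAHR 34 highest. The log2 fold change was 0.42 ± 0.10 (SE), or 1.34-fold, with an adjusted p of 0.0299 in the edgeR quasi-likelihood test. The call was lost without CAAHR 34 (adjusted p = 0.0501), CAAHR 36 (0.113), GFP 42 (0.0974), GFP 43 (0.114) or GFP 46 (0.0636), with upper quartile scaling (0.0587), and with the mean log2 CPM of the slow fibre markers as a covariate (0.139).

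The summed counts of both genes do not depend on how the counted reads were divided between them. Reads that match both genes are missing from the sum too. The sum was 193, 229 and 215 CPM in the CAAHR libraries and 140, 150 and 150 CPM in the GFP libraries. The log2 fold change of the sum was 0.53 ± 0.10 (SE), 1.44-fold, with an adjusted p of 0.0145 in the same edgeR test, an analysis chosen after seeing the data. The third pi class gene, Gstp3, had 8 counts over all 6 libraries and was not tested.

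The 250 bases that precede a RefSeq start of each gene that rose are shown next (GRCm38.p6). These are the windows in which an AHR or antioxidant motif would be sought. Each is written 5′ to 3′ along the strand of its gene and ends at the base before the start. Capitals mark matches, on either strand, to the AHR core GCGTG, the antioxidant element core TGACNNNGC or the AP-1 motif TGAGTCA:
Gstp1 (chr19:4037913-4038162, minus strand): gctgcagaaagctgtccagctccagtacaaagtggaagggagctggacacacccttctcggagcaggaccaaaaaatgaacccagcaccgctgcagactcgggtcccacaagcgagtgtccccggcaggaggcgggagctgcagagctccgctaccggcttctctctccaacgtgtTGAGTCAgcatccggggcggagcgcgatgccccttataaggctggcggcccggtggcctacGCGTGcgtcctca
Gstp2 (chr19:4042222-4042471, minus strand): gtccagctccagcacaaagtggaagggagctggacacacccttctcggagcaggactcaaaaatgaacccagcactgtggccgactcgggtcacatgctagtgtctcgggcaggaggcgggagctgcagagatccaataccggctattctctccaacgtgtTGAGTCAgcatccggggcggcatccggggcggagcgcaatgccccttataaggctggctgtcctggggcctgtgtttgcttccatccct
Gstm2 (chr3:107986421-107986670, minus strand): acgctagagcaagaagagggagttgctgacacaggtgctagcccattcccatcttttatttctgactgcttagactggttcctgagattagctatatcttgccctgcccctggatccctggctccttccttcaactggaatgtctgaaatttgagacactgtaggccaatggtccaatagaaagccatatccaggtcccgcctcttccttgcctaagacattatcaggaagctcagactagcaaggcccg
Mgst1 (chr6:138140277-138140526, plus strand): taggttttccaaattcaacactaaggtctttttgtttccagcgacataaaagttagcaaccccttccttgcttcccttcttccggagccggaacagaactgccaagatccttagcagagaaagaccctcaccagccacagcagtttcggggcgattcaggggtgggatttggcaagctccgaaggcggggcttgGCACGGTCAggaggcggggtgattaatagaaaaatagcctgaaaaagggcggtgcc
Gstp1 held GCGTG at 13 to 9 bases before its start and TGAGTCA at 74 to 68 bases before it. Gstp2 held TGAGTCA at 89 to 83 bases before its start and no GCGTG, and both pi class windows were 78.1% identical. Mgst1 held the antioxidant core, read on the opposite strand as GCACGGTCA, at 56 to 48 bases before the first of its starts. The Gstm2 window held no match. RefSeq starts can differ from the gene positions given in this report. The whole Gstp2 window and most of the Mgst1 window, its match included, lie inside those positions.

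These short motifs are common, and a match is only a description of the letters. GCGTG was present in the window of 30.9% of 27025 genes with a promoter entry, 12 of the 60 members with an entry (20.0%) and 5 of the 21 tested members with one (Gstm1, Gstm5, Gstp1, Mgst3 and Ugt8a). The extended form TNGCGTG, which contains the core, was present for 4.76% of genes, 3 of the 60 members (Gsta2, Sult1d1 and Ugt1a5) and 0 of the 21 tested. TGACNNNGC was present for 11.5% of genes and 4 of the 60 members (6.67%), all 4 among the 21 tested (Gsta3, Gstm5, Gstm7 and Mgst1). TGAGTCA was present for 5.16% of genes, 8 of the 60 members (13.3%) and 4 of the 21 tested (Gstm5, Gstp1, Gstp2 and Mgst2). Among the genes that fell, Gsta3 held TGACATTGC at 121 to 113 bases before its start and Sult5a1 held no match.

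**Figure D2:**
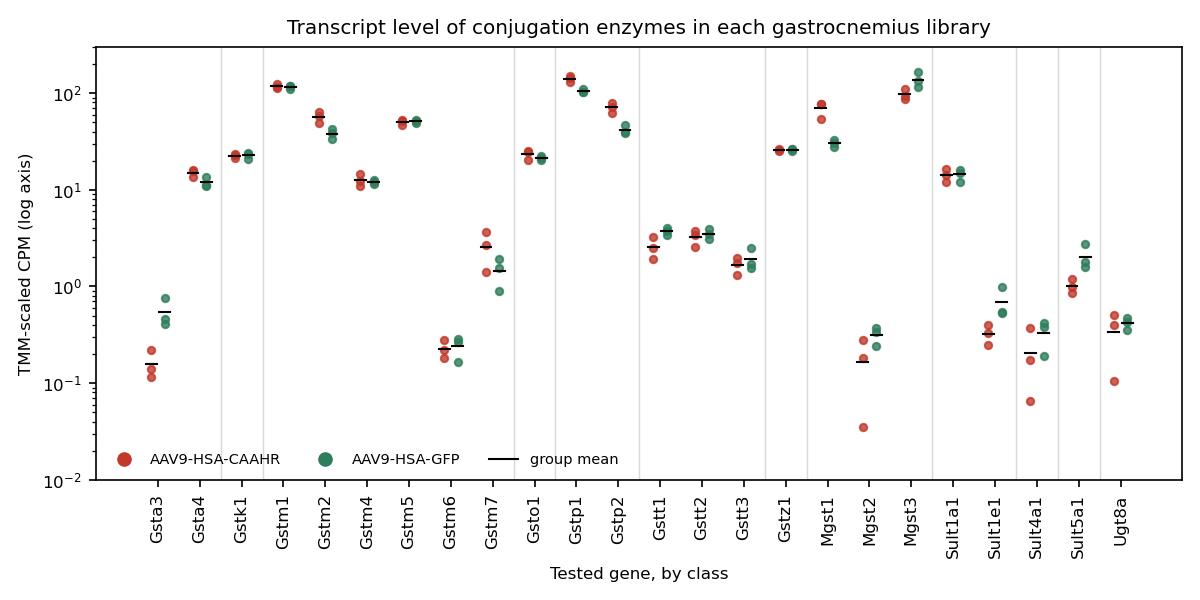
Level of the 24 tested genes in each library, as scaled CPM on a log axis, by enzyme class. Red points are the 3 AAV9-HSA-CAAHR libraries, green points the 3 AAV9-HSA-GFP libraries and black lines the group means, and only Gstm2, Gstp1, Gstp2 and Mgst1 have every red point above every green point.

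The mu class enzymes are cytosolic GSTs encoded in a cluster on chromosome 3. Of the 7 genes, 6 were tested and 1 rose. Gstm2 (chr3:107981702-107986453) was at 49.2, 64.3 and 58 CPM in CAAHR 31, 34 and 36 and at 42.2, 38.3 and 33.6 CPM in GFP 42, 43 and 46. The groups did not overlap, and CAAHR 34 was highest. The log2 fold change was 0.59 ± 0.12 (SE), 1.5-fold, with an adjusted p of 0.0215 in the edgeR quasi-likelihood test. The call was lost without CAAHR 36 (adjusted p = 0.0751), GFP 43 (0.0675) or GFP 46 (0.0819). No window of 150 coding bases of Gstm2 matched another gene (0 of 505).

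The mu class gene with the highest level, Gstm1, was at 112, 117 and 125 CPM in the CAAHR libraries and at 119, 110 and 119 CPM in the GFP libraries. These ranges overlapped, and the log2 fold change was 0.02 ± 0.09 (adjusted p = 0.908, edgeR). The log2 fold changes of Gstm4, Gstm5 and Gstm6 lay between -0.08 and 0.07. Gstm7 was at 3.62, 1.42 and 2.66 CPM against 0.891, 1.54 and 1.91 CPM, a difference that did not pass the test (log2 fold change 0.82 ± 0.38, adjusted p = 0.231, edgeR). Gstm7 was called higher without CAAHR 34 and without the low-count filter, and in no other alternative. Summed over the class, mu transcripts were at 241 ± 15.7 CPM (SD, n = 3) against 219 ± 4.72 CPM, so Gstm2 moved within a class whose total differed by 1.10-fold.

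The microsomal enzymes are integral membrane proteins of the MAPEG family, which also makes leukotrienes and prostaglandins, and some of them reduce lipid peroxides. The 3 genes did not move together. Mgst1 (chr6:138140316-138156755), found in the endoplasmic reticulum and the outer mitochondrial membrane, was at 77.9, 54.6 and 77.6 CPM in CAAHR 31, 34 and 36 and at 27.6, 30.8 and 32.9 CPM in GFP 42, 43 and 46. Every CAAHR library was above the GFP range, with CAAHR 34 lowest of the 3. The log2 fold change was 1.20 ± 0.14 (SE), 2.30-fold, with an adjusted p of 0.00179 in the edgeR quasi-likelihood test, and the call held when any 1 library was left out. With the slow fibre covariate, which is largely aligned with the groups, the log2 fold change was 0.60 and the call was lost (adjusted p = 0.0617, edgeR).

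Mgst3 (chr1:167371966-167393841), which has glutathione peroxidase activity, was at 92.6, 87.8 and 110 CPM in the CAAHR libraries and at 115, 134 and 166 CPM in the GFP libraries. The groups did not overlap, but the difference did not pass the adjusted threshold (log2 fold change -0.51 ± 0.15, adjusted p = 0.0628, edgeR). It did pass without GFP 42 (adjusted p = 0.0413, edgeR), with upper quartile scaling (0.0386, edgeR), without the low-count filter (0.000574, edgeR) and with DESeq2 (0.0146). In the other alternatives it did not pass. The summed level of the 3 MGST genes was 167 ± 23.0 CPM (SD, n = 3) in the CAAHR group and 169 ± 28.2 CPM in the GFP group. Within this sum, mean Mgst1 was at 70.0 against 30.4 CPM and mean Mgst3 at 96.9 against 138 CPM.

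Levels of different genes were compared per kilobase of exon. The full exon length was used, while 44.1% of the coding windows of Gstp1 and 52.2% of those of Gstp2 matched another gene. For Mgst3 and Gstm1 this was 0%. Values and shares of the pi class pair may thus be too low beside those of other genes. On this scale Mgst3 was highest in each GFP library, at 105, 123 and 151 CPM per kilobase, above Gstm1 at 80.6, 74.4 and 80.9 and Gstp1 at 65.7, 66.7 and 71.2. In the CAAHR libraries Gstp1 was at 83.8, 96.1 and 92.4, Mgst3 at 84.4, 80 and 100 and Gstm1 at 76.1, 79.2 and 84.7 CPM per kilobase, and the ranges of these 3 genes overlapped. As a share of the summed CPM per kilobase of the 68 genes, Mgst3 was 27.8% on average in the GFP group and 17.7% in the CAAHR group. Gstp2 was 8.30% and 12.9%, and Mgst1 was 3.34% and 7%.

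**Figure D3:**
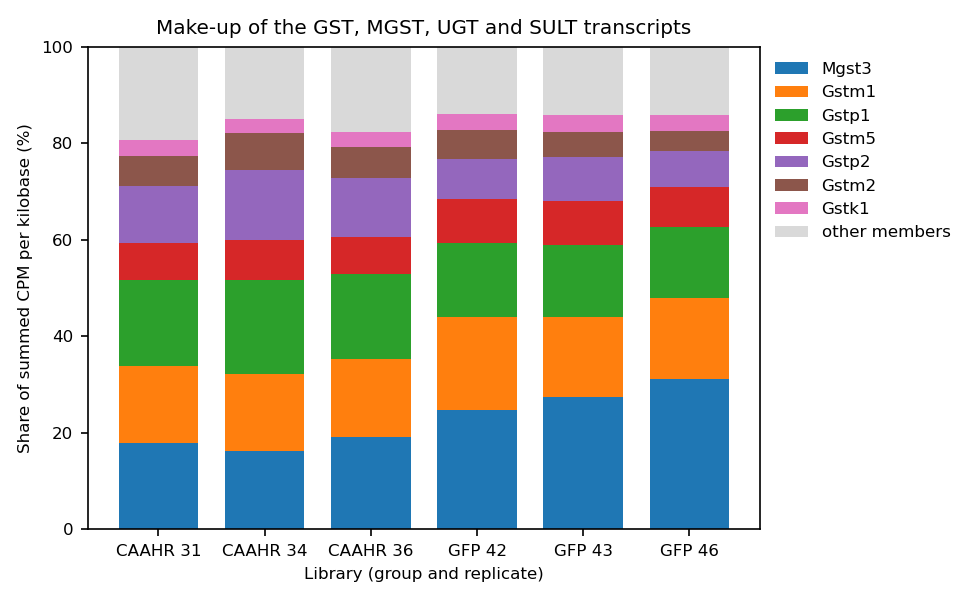
Share of the summed CPM per kilobase of exon of all 68 genes taken by the 7 genes with the highest GFP share, in each library, with the remaining members in grey. The Mgst3 part (blue) is between 16.2% and 19.1% in the CAAHR libraries and between 24.8% and 31.2% in the GFP libraries, while the Gstp2 part is larger in every CAAHR library.

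The alpha class encodes cytosolic GSTs best known from liver. Gsta3 (chr1:21240589-21265661), which in mouse conjugates the aflatoxin epoxide, was at 0.218, 0.140 and 0.115 CPM in CAAHR 31, 34 and 36 and at 0.456, 0.409 and 0.755 CPM in GFP 42, 43 and 46. Behind these levels were 11, 8 and 7 counts against 22, 17 and 40. The groups did not overlap, with GFP 46 the highest library. The log2 fold change was -1.79 ± 0.43 (SE), 3.45-fold lower, with an adjusted p of 0.0359 in the edgeR quasi-likelihood test. The call was lost when any 1 of the 6 libraries was left out, with adjusted p values of 0.0638 without CAAHR 31, 0.0623 without CAAHR 34, 0.128 without CAAHR 36, 0.0661 without GFP 42, 0.0539 without GFP 43 and 0.140 without GFP 46, and it was lost with the slow fibre covariate (0.165).

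The alpha class gene with the highest level was Gsta4, whose enzyme conjugates the lipid aldehyde hydroxynonenal. It was at 15.8, 13.4 and 15.9 CPM in the CAAHR libraries and at 10.9, 11.3 and 13.5 CPM in the GFP libraries. CAAHR 34 lay just below GFP 46, and the difference did not pass the adjusted threshold (log2 fold change 0.34 ± 0.12, adjusted p = 0.126, edgeR). Gsta1, the alpha class gene of the textbook AHR battery, had 0, 0 and 2 counts in the CAAHR libraries and 3, 0 and 0 in the GFP libraries. Of its coding windows of 150 bases, 84.8% matched another gene exactly, so few reads could be assigned to it. Its close copy Gsta2 (97.6% identical in coding sequence), noted after its values were seen, had 11, 2 and 8 counts against 0, 0 and 3, and both genes together had 11, 2 and 10 against 3, 0 and 3. The ratio of the summed counts of Gsta2, corrected for library size, was 5.93 with a 95% exact binomial interval of 1.77 to 31 that covers counting error only, and without the low-count filter its adjusted p was 0.107 (edgeR). The ratio was 3.92 without GFP 42, and GFP 46 held all 3 of the GFP counts.

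The kappa, zeta and omega classes had 1 tested gene each, and 0 of the 3 were called by edgeR, DESeq2 or limma-voom, with 0 at an unadjusted p under 0.05. Gstk1, the kappa class enzyme of mitochondria and peroxisomes, was at 23.2, 21.5 and 23.1 CPM in the CAAHR libraries and 20.9, 23.5 and 24.2 CPM in the GFP libraries. Gstz1, which isomerises maleylacetoacetate in tyrosine breakdown, was at 26.5, 25.4 and 25.6 CPM against 26.5, 25.1 and 26.5 CPM, with a log2 fold change of -0.01 ± 0.08. Gsto1, an omega class enzyme that removes glutathione from proteins, was at 25.4, 20.1 and 24.5 CPM against 20.2, 21.1 and 22.6 CPM (log2 fold change 0.13 ± 0.11). All 3 had overlapping groups and an adjusted p of 0.522 or more in the edgeR test.

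Of 4 theta class genes, 3 were tested and 0 were called by edgeR, DESeq2 or limma-voom, with 1 at an unadjusted p under 0.05 in edgeR. Gstt2, the one with the highest level, was at 2.57, 3.40 and 3.72 CPM against 3.46, 3.12 and 3.91 CPM. Gstt1, singled out after its values were seen, was at 2.51, 1.93 and 3.25 CPM against 4.04, 3.39 and 3.74 CPM. Its groups did not overlap, and its log2 fold change of -0.54 ± 0.21 had an unadjusted p of 0.0282 and an adjusted p of 0.152 (edgeR).

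Few sulfotransferase genes were detected, and 1 of the 4 tested fell. Sult1a1, the phenol sulfotransferase and the SULT gene with the highest level, was at 14.1, 12 and 16.3 CPM in the CAAHR libraries and at 12.1, 16.1 and 14.9 CPM in the GFP libraries, and these ranges overlapped (log2 fold change -0.03 ± 0.14, adjusted p = 0.942, edgeR). Sult5a1 (chr8:123140192-123158315) was at 0.850, 0.998 and 1.18 CPM against 1.80, 1.59 and 2.72 CPM, from 43, 57 and 72 counts against 87, 66 and 144. Its groups did not overlap, and GFP 46 was highest. The log2 fold change was -1.01 ± 0.27 (SE), 2.02-fold lower, and the adjusted p of 0.0499 (edgeR) was at the edge of the threshold. This call was lost without any 1 of the 6 libraries (adjusted p = 0.141 without CAAHR 31, 0.0625 without CAAHR 34, 0.0938 without CAAHR 36, 0.0825 without GFP 42, 0.0544 without GFP 43 and 0.174 without GFP 46), with scaling by library size only (0.0599), with at least 10 counts required in every library (0.0501), with limma-voom (0.0739), with edgeR without robust estimation (0.0518) and with the slow fibre covariate (0.205), in all 11 of 16 alternatives.

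Sult1e1, the oestrogen sulfotransferase, was at 0.395, 0.333 and 0.246 CPM in the CAAHR libraries and at 0.995, 0.529 and 0.548 CPM in the GFP libraries. The groups did not overlap, but the difference did not pass the adjusted threshold (log2 fold change -1.09 ± 0.38, adjusted p = 0.113, edgeR). Sult4a1, a brain sulfotransferase without a settled substrate, was at 0.376, 0.175 and 0.0656 CPM against 0.414, 0.385 and 0.189 CPM, with overlap between the groups. All 4 tested SULT genes had a negative log2 fold change and 1 of the 4 was called, but the value of Sult1a1 turned positive with library size only (0.06), with limma-voom (0.03) and without CAAHR 34 (0.07) or GFP 43 (0.06), and was 0 after rounding without GFP 46.

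Counts of UGT genes were at the limit of detection. Ugt8a, the 1 tested gene, whose enzyme adds galactose to ceramide in myelin-forming cells, was at 0.395, 0.105 and 0.509 CPM in the CAAHR libraries and at 0.352, 0.433 and 0.472 CPM in the GFP libraries. The groups overlapped (log2 fold change -0.31 ± 0.51, adjusted p = 0.768, edgeR). The summed level of Schwann cell markers was 72.8, 45.9 and 75.4 CPM against 125, 75 and 110 CPM, and CAAHR 34 was the lowest library for Ugt8a and for these markers.

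The Ugt1a genes on chromosome 1 share their last exons and differ in the first. In the annotation used here, between 50.3% and 60.6% of the exon bases of each lay in exons of the other 8 Ugt1a genes on the same strand, and reads there cannot be assigned to 1 gene, so the counts come from the remaining part only. Ugt1a6a, the UGT of the textbook AHR battery, had 0, 0 and 2 counts in CAAHR 31, 34 and 36 and 0, 3 and 3 in GFP 42, 43 and 46. Of its coding windows of 150 bases, 100% matched another gene exactly, so few reads could be assigned to it. Its copy Ugt1a6b (98.4% identical in coding sequence) had 0, 0 and 1 counts against 8, 1 and 3. The ratio for Ugt1a6b, corrected for library size, was 0.0706 with a 95% exact binomial interval of 0.00165 to 0.477, and without the low-count filter its adjusted p was 0.123 (edgeR). GFP 42 held 8 of its 12 GFP counts, and the ratio was 0.140 without GFP 42, 0.107 without CAAHR 34 and 0 without CAAHR 36.

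Ugt1a7c, singled out after its values were seen, had 1, 0 and 1 counts in the CAAHR libraries and 6, 9 and 11 in the GFP libraries. The ratio was 0.0651 (95% exact binomial interval 0.00749 to 0.260, counting error only), and 0.0985 without CAAHR 34. It did not pass the low-count filter, and without the filter its log2 fold change was -3.68 with an adjusted p of 0.00398 (edgeR). Over the Ugt1a genes together there were 1, 0 and 4 counts against 14, 13 and 17, a ratio of 0.0962 (interval 0.0298 to 0.242) that was 0.146 without CAAHR 34 and 0.0301 without CAAHR 36. All Ugt1a genes also overlap an antisense gene, Gm20528, and whether counting used strand was not given in the sources used here. A member with 0 counts in a library could still have been present at up to between 0.0492 and 0.0721 CPM, the level of 3 counts. This floor covers assigned reads only. The level could be higher for members that share sequence with other genes, such as the Ugt1a genes. In Ugt2a1 and Ugt2a2, 98.8% and 94.5% of the exon bases were shared with other genes on the same strand.

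The CAAHR libraries were not alike in how far they stood from the GFP mean. Ahr was 4.34, 9.94 and 7.56 times its mean GFP level in CAAHR 31, 34 and 36, and Cyp1a1, the AHR-induced monooxygenase, was 181, 247 and 223 times. Nqo1, a quinone reductase of the same battery, was 8.17, 10.7 and 8.91 times. Gstp2 was 1.51, 1.92 and 1.72 times, Gstm2 was 1.29, 1.69 and 1.52 times and Gstp1 was 1.23, 1.42 and 1.36 times. Among the CAAHR libraries, these 6 genes were thus lowest in 31 and highest in 34. Gstm4 and Gstm5, which were not called, had the same order, and the rest of the 24 tested members had other orders.

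Mgst1 had another order, at 2.56, 1.79 and 2.55 times its mean GFP level, with CAAHR 34 lowest. Of the 24 tested members, CAAHR 34 was the lowest CAAHR library for 12 and the highest for 6, CAAHR 31 the lowest for 8 and the highest for 9, and CAAHR 36 the lowest for 4 and the highest for 9. With 3 libraries these orders are given as a description and were not tested.

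**Figure D4:**
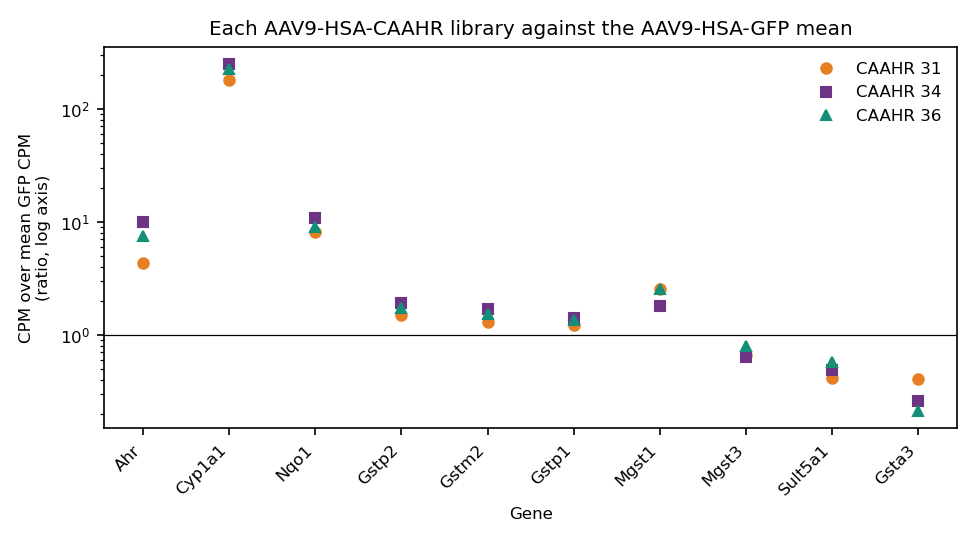
Level of each gene in the 3 AAV9-HSA-CAAHR libraries divided by its mean in the 3 AAV9-HSA-GFP libraries, on a log axis with 1 marking no difference. CAAHR 34 (purple squares) is highest for Ahr, Cyp1a1, Nqo1, Gstp2, Gstm2 and Gstp1 and lowest for Mgst1 and Mgst3.

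Related genes were taken from 6 lists of 73 genes, of which 62 were tested, 4 rose and 5 fell (median log2 fold change -0.07). The lists covered cofactor supply, export of products, other phase II enzymes, and relatives of the GST fold and the MAPEG family. Over all tested genes 7.60% were called, 3.04% higher and 4.57% lower. In the list of glutathione supply and mercapturate steps, 14 of 18 genes were tested, 1 rose and 1 fell. Oplah, the oxoprolinase that returns glutamate to the glutathione cycle, was at 83.5, 75.4 and 89.8 CPM in CAAHR 31, 34 and 36 and at 46.8, 46.7 and 49.8 CPM in GFP 42, 43 and 46 (log2 fold change 0.79 ± 0.10, adjusted p = 0.00163, edgeR). Ggt6, of the gamma-glutamyltransferase family, was at 0.138, 0.158 and 0.0984 CPM against 0.435, 1.18 and 0.491 CPM (log2 fold change -2.39 ± 0.50, adjusted p = 0.0215, edgeR), and its call was lost without CAAHR 31 (adjusted p = 0.0727), CAAHR 36 (0.0852) or GFP 43 (0.0691).

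The enzyme that makes the glucuronate donor fell. Ugdh, UDP-glucose dehydrogenase, was at 6.94, 5.97 and 6.32 CPM in the CAAHR libraries and at 15.6, 16 and 12.2 CPM in the GFP libraries, without overlap. Its log2 fold change was -1.19 ± 0.13 (SE) with an adjusted p of 0.00127 (edgeR), it was the 1 gene of 6 called in the UDP-glucuronate list, and it was called in all 16 alternatives. In the list of PAPS supply and desulfation 0 of 7 tested genes were called by edgeR, DESeq2 or limma-voom, with 0 at an unadjusted p under 0.05 in edgeR, and log2 fold changes lay between -0.14 and 0.23.

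Exporters of conjugates moved in both directions, with 2 of 6 tested genes higher and 1 lower. Abcc5 was at 85.6, 86.8 and 93.6 CPM against 59.7, 51.7 and 44.9 CPM (log2 fold change 0.77 ± 0.11, adjusted p = 0.00449, edgeR). Abcc4 was at 22, 23.4 and 22.9 CPM against 15.3, 17.1 and 13.2 CPM (log2 fold change 0.59 ± 0.11, adjusted p = 0.0144, edgeR), a call that was lost without CAAHR 36 (adjusted p = 0.0551). Abcc1, the pump best known for glutathione conjugates, was at 28.3, 31.1 and 28.2 CPM against 52.9, 46.5 and 52.8 CPM (log2 fold change -0.80 ± 0.09, adjusted p = 0.00145, edgeR). None of these 3 had overlapping groups.

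Among 12 tested genes of other phase II enzymes, Nqo1 alone was called, at 194, 255 and 212 CPM against 24, 22.2 and 25.1 CPM (log2 fold change 3.21 ± 0.13, adjusted p = 1.86e-06, edgeR). Among 17 relatives of the GST fold and the MAPEG family that the naming rule leaves out, 0 rose and 2 fell. Gdap1, a mitochondrial outer membrane protein with a GST-like fold, was at 15.1, 16.7 and 8.50 CPM against 34.9, 36.8 and 31.7 CPM (log2 fold change -1.36 ± 0.23, adjusted p = 0.0136, edgeR), and the call was lost without GFP 42 (adjusted p = 0.0511) or GFP 46 (0.0512). Alox5ap, the MAPEG protein that presents arachidonate for leukotriene synthesis in leukocytes, was at 1.27, 1.21 and 1.74 CPM against 2.28, 3.12 and 3.36 CPM (log2 fold change -1.05 ± 0.23, adjusted p = 0.0257, edgeR), and its call was lost without CAAHR 31 (adjusted p = 0.0884), GFP 43 (0.08) or GFP 46 (0.101). With the slow fibre covariate, 3 of the 9 called genes of these lists were still called, which were Ugdh, Abcc5 and Nqo1.

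**Figure D5:**
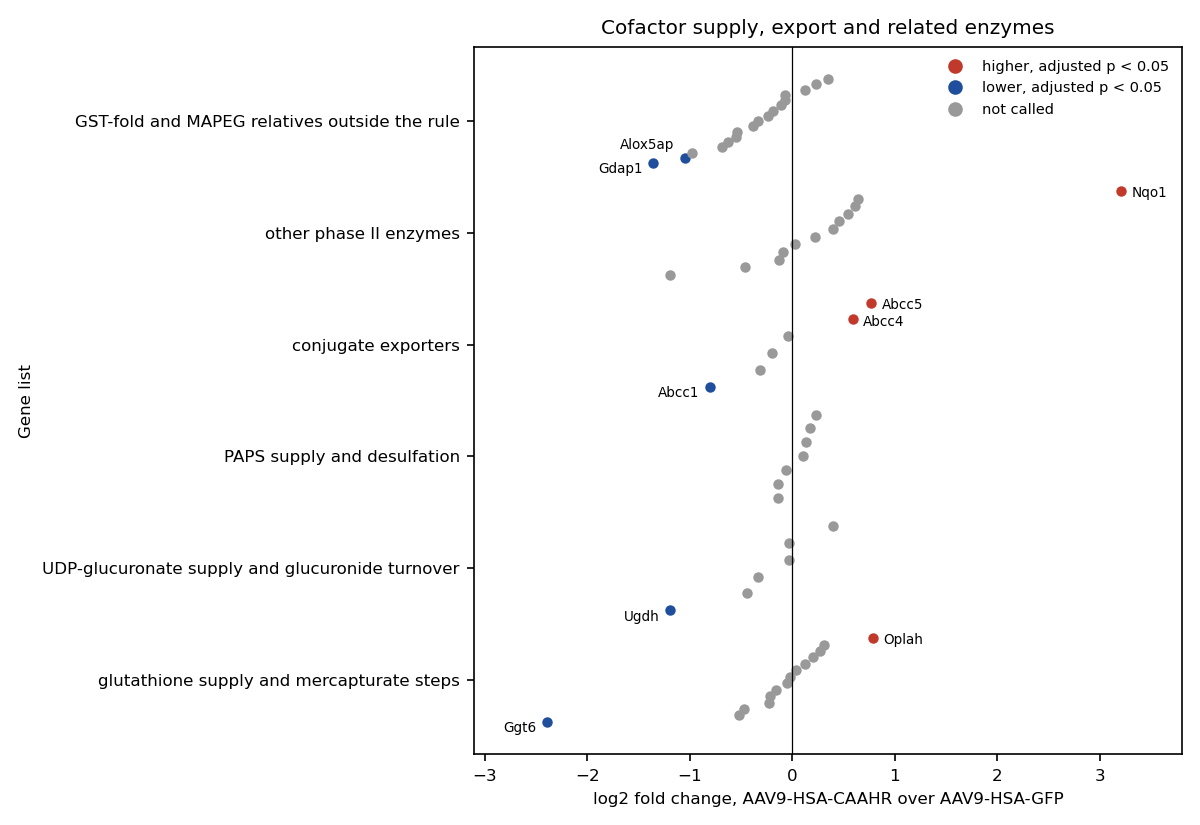
Log2 fold change, AAV9-HSA-CAAHR over AAV9-HSA-GFP, of the 62 tested genes of 6 lists of cofactor supply, export and related enzymes, each point 1 gene. The 4 genes in red rose and the 5 in blue fell, while the PAPS supply list has all 7 points within 0.23 of 0.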

How the data were processed

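Poly(A) RNA of 6 gastrocnemius muscles had been sequenced from both fragment ends. The deposited file held raw counts by gene, which the authors made by trimming reads with Trimmomatic 0.36, aligning them to GRCm38 with STAR 2.5.2b and counting uniquely assigned exonic reads with featureCounts, without normalisation or pooling. The annotation release and strandedness were not given in the sources used here. Samples were grouped by title. Rows without a symbol (174, with 0.0154% of counts) were kept as genes.

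The test was the quasi-likelihood F test of edgeR 4.0.16 (robust, R 4.3.3) on the 15847 genes that passed filterByExpr, after TMM scaling, with Benjamini-Hochberg adjustment at 0.05. The study used DESeq2, which was an alternative here. CPM are TMM-scaled, CPM per kilobase used merged exon lengths, and SE were derived from the F statistic. The scripts were tested on simulated data. Positions, exon overlaps and coding sequences came from GENCODE M21 (GRCm38), where 99.3% of identifiers were found, and promoters from RefSeq (GRCm38.p6), with an entry for 60 of 68 members. Within groups, chi-square tests of the counts gave 21.6 to 152 per degree of freedom, so replicates were not copies of one library. With 43432994 to 58825752 counts per library, 3 counts equal 0.0492 to 0.0721 CPM. Intervals and floors cover counting error only.

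Named with every library's value were called members, Gsta1, Ugt1a6a, Ugt1a6b and the member with the highest mean CPM of each class where tested, and called genes of the pathway lists. The members and lists were chosen with earlier results of these data known. Alternatives were 3 scalings, 2 filters, DESeq2 1.42.0, limma-voom (limma 3.58.1), edgeR without robust estimation, a slow fibre covariate (mean log2 CPM of 9 markers, prior count 2), leaving out each library, and summed paralogs.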

Additional observations from a re-analysis of the deposited data

How the results depend on the processing

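No paired analysis was possible because CAAHR (31, 34, 36) and GFP (42, 43, 46) have different replicate numbers. Of 253 checks of single named members over 16 genes, 199 kept their direction and side of the threshold, 29 kept the direction but lost the call and 4 gained it. The other 21 changed sign, in 8 genes, 0 of them called as reported or in the alternative (lowest adjusted p 0.502, edgeR or limma-voom). These log2 fold changes were -0.01 for Gsta4 and -0.24 for Gsto1 with the covariate for slow fibre markers, -0.05 for Gstm1 with upper quartile scaling, 0.07 for Gstk1, 0.07 for Gstz1 and 0.06 for Sult1a1 with library size only, 0.01 for Gstk1 and 0.03 for Sult1a1 with limma-voom, and 0 after rounding for Gstz1 without a filter. The remaining 12 came from leaving out 1 library, over which values ran from -0.02 to 0.05 for Gstm1, -0.07 to 0.03 for Gstk1, -0.04 to 0 for Gstz1, -0.24 to 0.02 for Gstt2, -0.15 to 0.07 for Sult1a1 and -0.77 to 0.10 for Ugt8a. Among all tested genes, 1205 calls became 2470 without a filter on low counts, 1932 with DESeq2 and 436 with the slow fibre covariate, and leaving out 1 library gave 530 to 1727. Higher calls were 481 of 1205 as reported, 358 of 1348 with upper quartile scaling and 876 of 1476 with library size only. The 6 called members became 2 with the covariate (Gstm2 and Gstp2). With 1 library left out, 2 to 5 members were called, with the low of 2 (Gstp2 and Mgst1) without CAAHR 36, GFP 43 or GFP 46. Some of these were not among the 6, namely Gstm7 without CAAHR 34, and Mgst3 and Ugt1a7c without GFP 42. The 3 members called above 2-fold became 1 with at least 10 counts in every library, where Gsta3 is no longer tested and Sult5a1 has an adjusted p of 0.0501 (edgeR). With the covariate 1 was called, and 1 to 2 with 1 library left out. Of the 3, Mgst1 alone stayed called with 1 library left out. The second gene was Gstm7 without CAAHR 34 and Ugt1a7c without GFP 42. The number of called pathway genes, 9 as reported, was 15 without a filter, 4 with the covariate and 7 to 12 with 1 library left out. Of the 4 called with the covariate, 3 were among the 9. Except for the filters, which change the genes tested, and the left-out libraries, the cause was not tested. Without a filter Gstm7, Mgst3 and Ugt1a7c were also called, and with DESeq2 Mgst3 and Ugt1a7c. The planned sum of paralogs by protein identity was not run because no protein table was used here, and a sum over paralogs at least 90% identical in coding sequence, chosen after seeing the data, called 5 members, with Gstp1 and Gstp2 as 1. Genes at a few counts per library, which include nearly all UGT genes, are limited by depth. The Ugt1a genes, Ugt2a1 and Ugt2a2 are also limited by reads that match other genes and were not counted.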
